A study of Mus musculus with 4 samples.

Results

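The block examined here is the stretch of mouse chromosome 11 from 101000001 to 106000000 bp (mm10), where the merged pull-down material of a Malat1 chromatin study gave peaks far more densely than in most of the genome. Its members are all peaks on chromosome 11 whose summit falls in that interval, and there are 1624 of them among 77823 peaks in all. That is 2.09% of the peaks (95% Wilson interval 1.99 to 2.19%, counting error only) on 0.185% of the effective genome. The interval was chosen for its peak density and its input level, so both are given as a description and with no test.

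The long noncoding RNA Malat1 sits in nuclear speckles, bodies rich in splicing factors, and contacts many transcribed genes. Chromatin isolation by RNA purification (ChIRP) captures such an RNA with biotin-labelled antisense oligonucleotides and sequences the DNA that comes with it. Input DNA is sequenced without capture, so its depth along the genome follows how much of each region the sheared and sequenced material holds.

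The study used 4T1-TGL, an established mouse breast cancer line that the labels give as strain BALBC and genotype WT, grown in DMEM/F12. Its 4 libraries are 1 pull-down with each of the probe pools Even, Odd and LacZ (a bacterial gene, the usual control target) and 1 input, titled as the Even input, all from the same line with no treatment or time given. The deposited peaks come from 1 merged treatment compared with 1 input, and the sources used here do not name the pull-downs that were merged. No value below therefore has a replicate, no test between samples was possible, and the pools cannot be compared. The merged treatment kept 851227 tags after duplicates were removed and the input 50030325, which makes the input 58.8 times as deep.

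5 values describe each peak. The tag count is the number of treatment tags in it, the length is in base pairs, and the summit height is the pile-up of tags at the summit. Fold enrichment is that height over the local input, as the authors' run gives it. The implied input, computed from height and fold, gives the scaled input around the peak as a multiple of its genome mean. It is known only where a peak lies and is never below 1 by construction.

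At fine scale the 5 Mb were not 1 even block. Dense peaks of high implied input filled 2 segments and 1 small site, together 2.17 Mb or 43.5% of the interval, and these held 1537 of the 1624 peaks (94.6%). The proximal segment, from 101806223 to 102045129, held 160 peaks and ran through Meox1, Sost, Dusp3 and Mpp3. The distal segment, from 103167796 to 105102321, held 1375 peaks and ran from just before Fmnl1 through Wnt9b, Wnt3, Nsf and Mapt to Efcab3. The site lay in Fam171a2 and held 2 peaks. The remaining 87 peaks were spread over 2.83 Mb at a density like that of the flanking chromosome.

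**Figure D1:**
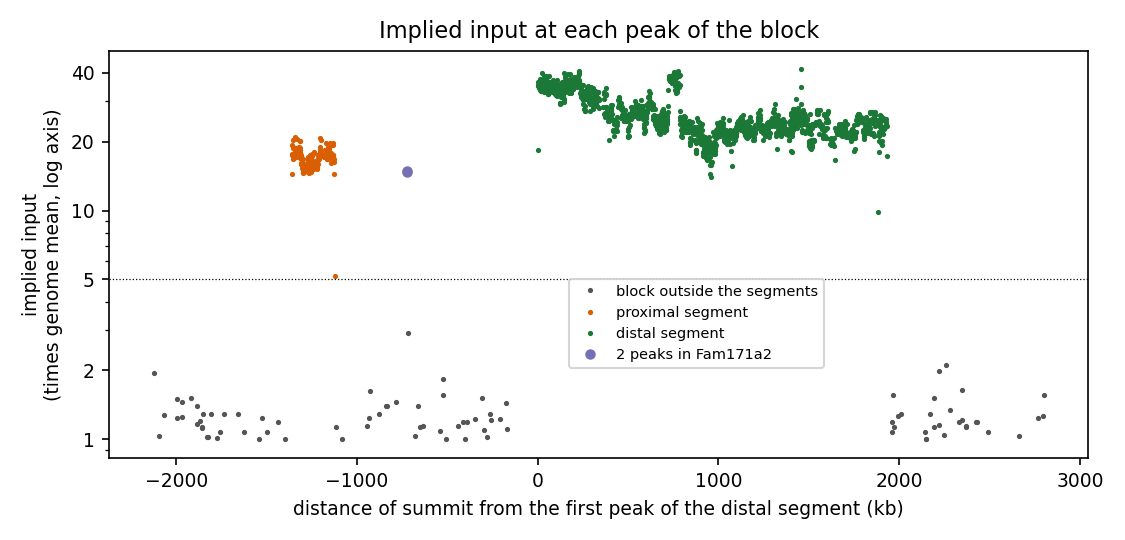
Each point is 1 peak, placed by the distance of its summit from the first peak of the distal segment (kb) and by its implied input on a log axis, as a multiple of the genome mean, with a dotted line at 5. The proximal segment sits around 17.3, the distal segment mostly between 19.4 and 36.5, and the peaks between and around them between 1.00 and 2.92.

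The sequences below are the 250 bases before the annotated start of genes in the segments, and they are shown because they are the gene-start sequences on which the peaks did or did not lie. They come from RefSeq on GRCm38.p6 (mm10), run 5′ to 3′ along the gene's own strand, and have the bases inside a peak in capitals. The first 5 stretches lie wholly inside a peak. For Map3k14, which encodes the NF-kappaB-inducing kinase, it is a peak of 23 tags. For Arhgap27 the peak has 219 tags, and for Lrrc37a, a leucine-rich repeat gene, 66 tags. The peak over the start of Lyzl6, a lysozyme-like gene, has 146 tags, and that of Gosr2, a Golgi SNARE, has 33 tags. At Map3k14 and Gosr2 the summit lies inside the printed stretch. Another annotated start of Gosr2, not printed here, has no base of its stretch in a peak.
Map3k14, chr11:103267402-103267651, minus strand: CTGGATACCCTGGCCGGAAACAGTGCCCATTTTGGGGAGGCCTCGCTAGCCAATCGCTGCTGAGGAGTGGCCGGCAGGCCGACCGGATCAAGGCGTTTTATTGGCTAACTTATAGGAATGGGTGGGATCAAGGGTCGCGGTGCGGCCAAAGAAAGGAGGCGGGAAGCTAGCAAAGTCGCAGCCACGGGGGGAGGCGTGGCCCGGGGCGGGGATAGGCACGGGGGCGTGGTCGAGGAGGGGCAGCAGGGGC
Arhgap27, chr11:103363693-103363942, minus strand: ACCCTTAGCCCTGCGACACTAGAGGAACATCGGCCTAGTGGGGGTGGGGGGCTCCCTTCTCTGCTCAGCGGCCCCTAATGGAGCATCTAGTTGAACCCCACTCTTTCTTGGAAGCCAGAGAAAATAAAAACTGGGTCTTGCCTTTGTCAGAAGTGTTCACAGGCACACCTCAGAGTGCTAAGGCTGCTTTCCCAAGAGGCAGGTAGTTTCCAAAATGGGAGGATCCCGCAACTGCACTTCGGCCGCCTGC
Lrrc37a, chr11:103505009-103505258, minus strand: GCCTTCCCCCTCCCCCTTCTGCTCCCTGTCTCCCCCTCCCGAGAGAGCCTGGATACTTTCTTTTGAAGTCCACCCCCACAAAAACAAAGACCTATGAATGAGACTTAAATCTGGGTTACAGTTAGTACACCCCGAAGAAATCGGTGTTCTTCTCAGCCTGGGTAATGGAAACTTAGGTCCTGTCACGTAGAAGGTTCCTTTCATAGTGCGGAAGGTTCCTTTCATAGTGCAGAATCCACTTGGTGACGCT
Lyzl6, chr11:103638891-103639140, minus strand: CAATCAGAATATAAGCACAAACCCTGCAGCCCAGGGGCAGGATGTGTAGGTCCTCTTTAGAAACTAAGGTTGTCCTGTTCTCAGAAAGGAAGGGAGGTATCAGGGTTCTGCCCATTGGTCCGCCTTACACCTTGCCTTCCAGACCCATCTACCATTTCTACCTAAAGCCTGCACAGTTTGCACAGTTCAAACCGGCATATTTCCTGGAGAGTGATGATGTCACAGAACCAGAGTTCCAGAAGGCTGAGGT
Gosr2, chr11:103697724-103697973, minus strand: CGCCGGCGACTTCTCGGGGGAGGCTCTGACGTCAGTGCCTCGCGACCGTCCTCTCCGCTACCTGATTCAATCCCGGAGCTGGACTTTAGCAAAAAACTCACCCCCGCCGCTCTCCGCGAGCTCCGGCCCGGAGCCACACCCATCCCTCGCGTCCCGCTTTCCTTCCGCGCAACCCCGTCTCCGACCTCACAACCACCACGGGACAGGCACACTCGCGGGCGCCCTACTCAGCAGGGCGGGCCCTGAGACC

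Only part of the stretch was covered at Sost, which encodes the Wnt inhibitor sclerostin, and at Arf2, a small GTPase of vesicle formation. A peak of 33 tags reached 62 of the 250 bases at Sost, and a peak of 22 tags reached 125 at Arf2.
Sost, chr11:101967016-101967265, minus strand: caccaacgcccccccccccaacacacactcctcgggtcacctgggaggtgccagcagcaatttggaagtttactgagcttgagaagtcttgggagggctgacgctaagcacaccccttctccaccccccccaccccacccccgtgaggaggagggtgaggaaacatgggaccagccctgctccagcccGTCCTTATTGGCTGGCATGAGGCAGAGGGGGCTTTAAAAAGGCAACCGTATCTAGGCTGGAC
Arf2, chr11:103966475-103966724, plus strand: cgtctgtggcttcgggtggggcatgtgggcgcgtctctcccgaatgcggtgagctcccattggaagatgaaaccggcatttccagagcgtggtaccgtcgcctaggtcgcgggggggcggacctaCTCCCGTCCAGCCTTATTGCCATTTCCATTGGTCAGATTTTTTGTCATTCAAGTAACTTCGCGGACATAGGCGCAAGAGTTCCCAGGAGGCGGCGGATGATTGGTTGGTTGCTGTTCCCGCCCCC

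No peak reached the same stretch at 3 other genes that had many summits in their bodies. These were Nsf, the ATPase that takes SNARE complexes apart after vesicle fusion, Plekhm1, a lysosome adaptor, and the predicted gene Gm11639.
Nsf, chr11:103954057-103954306, minus strand: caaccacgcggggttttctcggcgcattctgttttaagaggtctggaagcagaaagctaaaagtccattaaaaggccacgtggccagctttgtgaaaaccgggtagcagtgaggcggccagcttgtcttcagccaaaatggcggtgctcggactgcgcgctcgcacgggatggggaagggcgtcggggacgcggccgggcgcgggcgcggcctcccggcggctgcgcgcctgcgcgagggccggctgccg
Plekhm1, chr11:103412706-103412955, minus strand: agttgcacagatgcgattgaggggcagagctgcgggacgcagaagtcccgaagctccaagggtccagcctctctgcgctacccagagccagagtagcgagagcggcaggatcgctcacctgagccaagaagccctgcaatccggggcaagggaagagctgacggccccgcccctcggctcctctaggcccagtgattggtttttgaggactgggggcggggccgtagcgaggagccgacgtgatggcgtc
Gm11639, chr11:104780959-104781208, plus strand: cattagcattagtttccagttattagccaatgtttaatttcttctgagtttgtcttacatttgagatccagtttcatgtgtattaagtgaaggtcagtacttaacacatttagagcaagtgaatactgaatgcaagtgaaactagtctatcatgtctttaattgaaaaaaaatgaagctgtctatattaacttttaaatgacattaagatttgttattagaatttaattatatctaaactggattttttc

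These stretches differ in base composition. GC content was 65.2% at Map3k14, 55.2% at Arhgap27, 49.6% at Lrrc37a, 49.2% at Lyzl6 and 68% at Gosr2, all covered in full. It was 66% at Nsf, 64.8% at Plekhm1 and 27.6% at Gm11639, where no peak lay. The printed genes with and without a peak therefore overlapped in GC content, apart from the AT-rich start of Gm11639.

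Promoter windows over the whole interval were counted next, as RefSeq's 300-base windows from 250 bases before to 50 after a gene start. A peak overlapped 25 of the 134 windows in the interval (18.7%), against 1.94% of the 32619 windows of chromosomes 1 to 19 and X. All 25 lay in the segments, 24 of 41 in the distal segment (58.5%) and 1 of 5 in the proximal one. None of the 88 windows outside the segments was overlapped, a count for which the upper limit of the 95% Wilson interval is 4.18%. Those 88 windows belong to 71 genes and some share bases, while the limit takes them as independent, so it is too low. In the distal segment peaks covered 43.1% of the bases summed over the 41 windows, where bases shared by windows count more than once. They covered 36.2% of all bases of the segment, so on this count gene starts were covered little more than the segment as a whole. Of the 24 overlapped windows there, 9 held a summit and 9 were covered in full.

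Overlap was then counted by GC content. In the segments it fell on 25 of 37 windows of 40 to 70% GC, on 0 of 6 windows of 70% or more and on 0 of 3 windows under 40%. Over all promoter windows, peaks overlapped 2.20% of those of middle GC, 0.953% of those of high GC and 0.795% of those of low GC. Whether GC content plays a part in the recovery of these windows was not tested. The letters CCAAT, read on either strand and overlapping no other motif searched, stood in 18 of the 25 overlapped windows and 10 of the 21 others, and in 37.6% of all promoter windows. Some of these windows share bases, as at Cdc27 and Myl4, so 1 match can count in more than 1 window. That motif was chosen after the sequences had been read, and a match is a description of the letters alone.

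**Figure D2:**
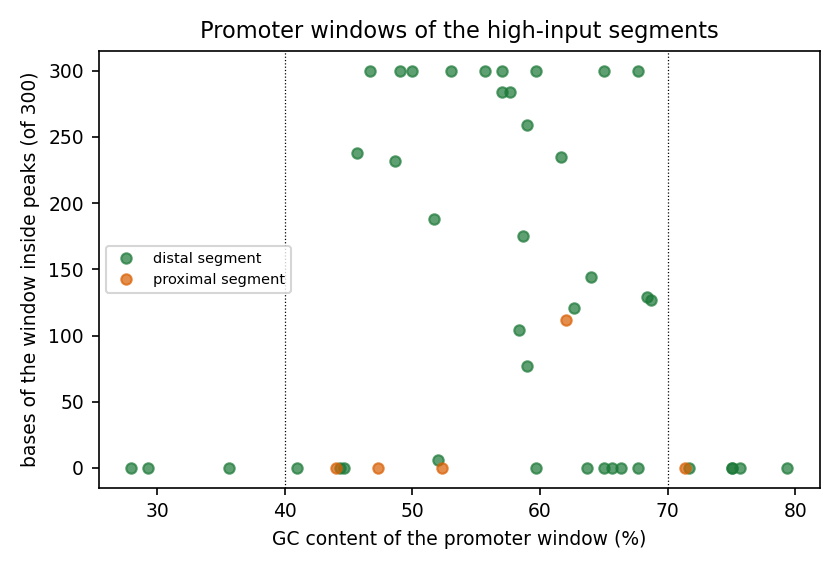
Each point is 1 promoter window of 300 bases in the segments, with its GC content (%) on the x axis and the number of its bases inside peaks on the y axis, and dotted lines at 40 and 70% GC. The 25 windows with any covered base lie between 45.7 and 68.7% GC, and 9 of them are covered over all 300 bases.

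Peaks in the interval were long and rich in tags. The median peak had 22 tags (5th to 95th percentile 7 to 127.7), a length of 381 bp (133 to 1122) and a summit height of 7. Over the whole list the medians were 5 tags, 135 bp and a height of 3. The interval held 537 of the 1032 peaks longer than 500 bp (52.0%), 624 of the 3141 peaks of at least 30 tags (19.9%) and 54 of the 103 peaks with the greatest summit height in the list, which is 22. Peaks of 137 tags, in Crhr1, and of 398 tags, in Spata32, both have that height, so it does not rank the strongest peaks. Whether the height has a ceiling at that value was not tested. Its peaks carried 62713 of the 665028 tags in peaks, or 9.43%.

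Fold enrichment was lower than elsewhere. Its median was 18.9 in the interval (range 6.66 to 528) and 133 over the whole list. Fold divides by local input, and the median implied input was 23.6 in the interval and 1.4 over the list. The rule that drew the interval already used this input, so it is given here as a description.

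The distal segment held most of the peaks. Its median peak had 25 tags, 407 bp and an implied input of 24.6 (5th to 95th percentile 19.4 to 36.5). The proximal segment was lower in each of these, with 18 tags, 321 bp and an input of 17.3 (14.7 to 19.8), and higher in median fold, at 23.4 against 17.8. Summit density was nearly the same, 711 summits per Mb in the distal and 670 in the proximal segment. Peaks covered 36.2% of the distal and 24.1% of the proximal segment. The spread of inputs within the proximal segment lay almost wholly below that of the distal one.

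Between and around the segments the interval resembled its surroundings. Its 87 other peaks stood at 30.8 summits per Mb with a median of 4 tags, 132 bp and an implied input of 1.19. The 5 Mb before the interval had 36.0 summits per Mb, 4 tags and an input of 1.19. The 5 Mb after it had 31.6 summits per Mb, 5 tags and an input of 1.24. The rest of chromosome 11 had 31.2 summits per Mb and an input of 1.24. Chromosomes 15 and 9, which are denser than most, reached 63.2 and 45.2 summits per Mb, far short of either segment.

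The smallest peaks were missing from the segments. Peaks of 3 tags, the fewest in the list, made up 37.2% of all peaks and 38 of the 87 peaks outside the segments, but 0 of the 1537 peaks inside them. The cutoff of the authors' run bears on this directly. With a Poisson background over 2 fragment lengths at a p of 1e-05, 3 tags pass only up to an implied input of 3.82, 6 tags up to 21.3 and 8 tags up to 39.4. The fewest tags seen in a peak were 3 below an input of 5, 6 at 20 to 25, 8 at 25 to 35 and 11 at 35 or more. From 15 to 20 the smallest peak had 5 tags, 1 fewer than that calculation needs.

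Tags rose further than this floor. The median peak had 4 tags below an input of 5, 18 tags at 15 to 20, 19 at 20 to 25, 28 at 25 to 30, 35.5 at 30 to 35 and 50 at 35 or more. Per base of segment, the treatment tags in peaks were compared with the level that the scaled input would give. Distal peaks held 29.9 treatment tags per kb of segment where the scaled input comes to 7.74, a ratio of 3.86. In the proximal segment the values were 18.0 and 5.44 per kb, a ratio of 3.32. In the 87 peaks outside the segments the ratio was 0.502, and it was 0.678 and 0.646 in the flanks before and after the interval.

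The ratio was also taken over windows of 1 Mb, which do not stop at the segments' edges. The 5 windows of the interval had ratios of 0.695, 0.365, 3.66, 2.97 and 0.266 in order, and the interval as a whole had 1.68. Only the windows at 103 and 104 Mb, which lie mostly or wholly in the distal segment, were high on this scale. The input in these ratios is the median at the peaks of a window, while the tags are divided by its whole length. In the other windows of the interval, peaks of the segments raise that median. Their ratios, and the 1.68 of the interval, are lowered by this and do not give tags against the input of all the ground. Over 2291 windows of 1 Mb outside the interval with at least 10 peaks, the median ratio was 0.530 (5th to 95th percentile 0.219 to 1.07). In the 27 of them with a median implied input of 3 or more it was 1.05, with a highest value of 1.73. The value of 0.695 for the window with most of the proximal segment lay below that median, but the segment itself had 3.32. The highest of all outside the interval was 8.28, on chromosome 19 at 5 to 6 Mb, which holds the Malat1 gene and had an implied input of 1.16. Tags outside peaks are not counted in these ratios. A larger share of tags lies in peaks where peaks cover more of the ground, and its part in the ratios was not tested.

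**Figure D3:**
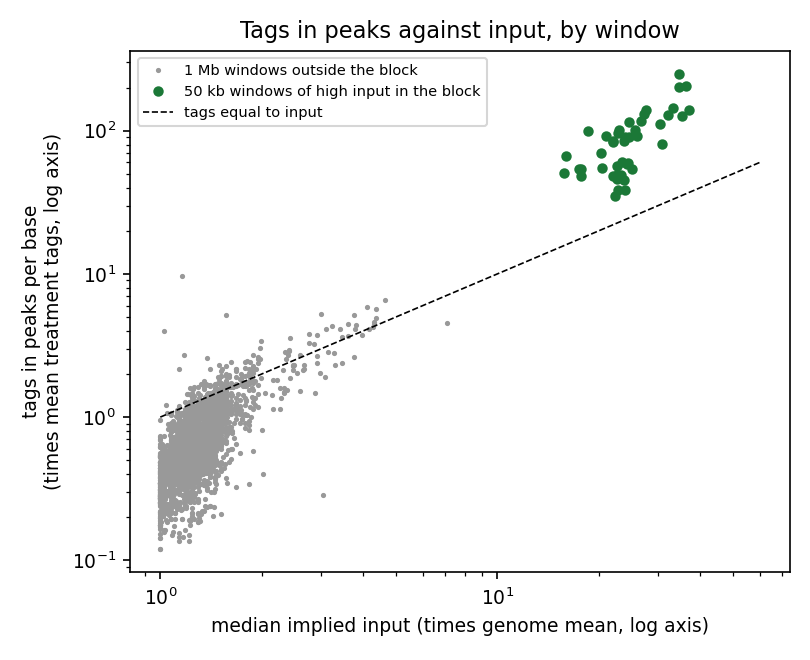
Grey points are 1 Mb windows outside the interval and green points the 44 windows of 50 kb of high input in the 2 segments (the single window at Fam171a2 is not drawn), by median implied input and by tags in peaks per base, each as a multiple of its genome mean on a log axis. The green windows lie above the dashed line of tags equal to input, and most grey windows lie below it. The window not drawn has a ratio of 0.470 and would lie below that line, but its input is the median of only 3 peaks. Green windows of 50 kb lie at the segments while grey windows of 1 Mb also take in sparse ground, so the 2 sets are not alike.

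Most peaks of such input on chromosomes 1 to 19 and X lay in the interval. Of the 1674 peaks with an implied input of 10 or more, 1535 (91.7%) lay in it, and of the 1593 at 15 or more, 1516 (95.2%). The other places at 10 or more included 19 peaks on chromosome 11 at 3158598 to 3200028 with a median of 33.2, and 34 peaks at 61 Mb of chromosome 15 with a median of 11. Whether the authors' limit of 1 tag per position and strand holds these input values down was not tested. At the highest level in the distal segment the input comes to 686 tags per kb, which would fill 34.3% of the positions on each strand.

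Each edge could be followed only as closely as peaks lay near it. The last peak before the proximal segment had its summit at 101767595 with an implied input of 1.00, and the first peak inside it, 38.6 kb on, had 8 tags and an input of 14.4, followed by peaks at 17.4 and 17.6. At its other end the inputs of the last 3 peaks were 16.8, 16.3 and 5.15, and the next peak, 6.42 kb on, stood at 1.13. Both of these last values lie in Cd300lg, an endothelial immunoglobulin-family receptor, so that gene spans the edge. The local input is taken over up to 10 kb, so an edge cannot be placed more finely than that from these values.

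The distal segment began after a long empty stretch. No peak lay in the 170.7 kb before it, which hold Nmt1, Plcd3, Acbd4, Hexim1 and Hexim2 among 7 genes. The last peak before that stretch had an implied input of 1.11, and the first 3 peaks of the segment had 18.3, 36.5 and 35. The input passed from 18.3 to the range of the first level by the second peak. At the far end the last 3 inputs were 23.6, 23.4 and 17.4, inside Efcab3, and the next peak, 26.1 kb on, was back at 1.08. The chosen limits of the interval fell in neither segment. Just inside them were peaks of 3 and 7 tags with inputs of 1.94 and 1.57, and just outside peaks of 10 and 6 tags with inputs of 1.19 and 1.35.

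The site in Fam171a2, a membrane protein gene, was isolated. Its 2 peaks, between 102443445 and 102444203, had 14 and 59 tags and implied inputs of 14.7 and 14.8. The peak before it stood at 1.46, 56.6 kb away. The next peak, at 102448197 to 102448555, had 36 tags, a fold of 307 and an input of 2.92.

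In windows of 50 kb, 45 of the 100 windows of the interval had at least 3 peaks and a median implied input of 5 or more. Over chromosomes 1 to 19 and X this was so for 77 of 10755 windows, or 0.716%, and since the interval was drawn with this measure the 2 values are only set side by side. The 45 windows formed 1 run of 39 windows at the distal segment, 1 of 5 at the proximal segment and 1 single window at Fam171a2. The 39 distal windows held 17 to 50 summits each (median 37) and 552 to 3890 tags (median 1428). The 55 other windows held 0 to 5 summits each and at most 58 tags, and 15 of them held no summit.

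**Figure D4:**
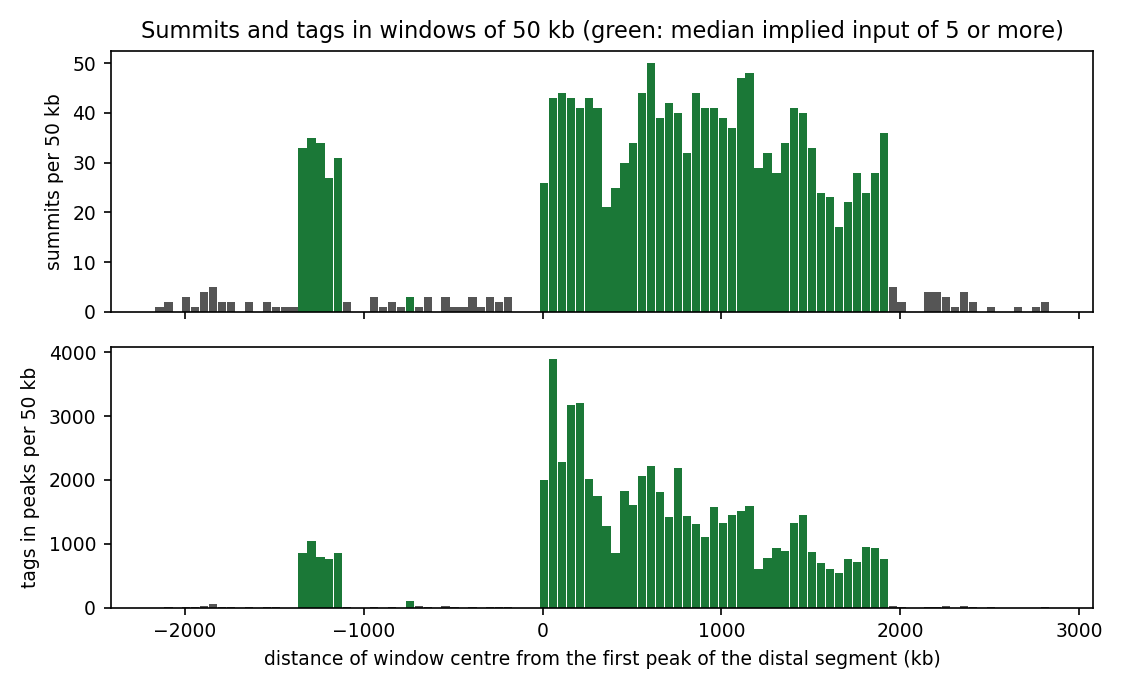
Bars give the summits (upper panel) and the tags in peaks (lower panel) of each 50 kb window, by the distance of its centre from the first peak of the distal segment (kb), with windows of a median implied input of 5 or more in green. Summits stay between 17 and 50 over the 39 distal windows, while tags fall from up to 3890 near its start towards its far end.

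Within the distal segment input fell in steps from the proximal to the distal end, with 1 interruption. A split of the peaks into stretches of even input, made after the data were seen, gave 4 levels. The first ran for 382 kb from just before Fmnl1 into Gm884, with 302 peaks and a median input of 33.7. The second covered 339 kb with 258 peaks at 26.0, and the third 64.8 kb with 50 peaks at 37.0. The fourth covered 1146 kb with 765 peaks at 22.6. The proximal segment formed 1 level. The number of levels and the end of the first depend on the smallest step allowed. At a step of 0.15 on the log2 scale there were 5 levels, and at 0.15 and 0.25 the first ended at 103471796, while the bounds of the stretch in Nsf and of the one after it were the same at every step.

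The levels differed far more in tags than in the number of summits. From the first to the fourth, the median peak had 39, 27, 41 and 20 tags, and there were 79.1, 76.1, 77.2 and 66.8 summits per 100 kb. Tags in peaks came to 51.3, 34.1, 40.4 and 21.0 per kb. The ratio of these tags to the scaled input was 4.84, 4.16, 3.47 and 2.94, so the level with the highest input was not the one with the highest ratio.

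The third level ended beside the start of Nsf and covered the promoter-side part of that gene. The 49 Nsf peaks inside it had a median input of 37.0 (range 32.7 to 40.5) and a median of 42 tags. The 61 Nsf peaks outside it had an input of 24.1 (21.7 to 28.7) and 18 tags. The input ranges of the 2 groups did not overlap, because the split was made on that input. At the level's first edge neighbouring peaks 2063 bp apart stood at 28.7 and 33.7, and at its other edge peaks 369 bp apart stood at 27.1 and 25.8.

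Over the 39 distal windows, Pearson's r with median input was 0.77 for tags, 0.85 for the median tags of a peak and 0.21 for the number of summits. Spearman's rho was 0.67, 0.73 and 0.20. These are descriptions over neighbouring windows that share the same libraries, cutoff and chromosome, so no p is given.

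Gaps in the segments were short. Neighbouring peaks lay a median of 1085 bp apart in the distal and 1122 bp in the proximal segment, against 19596 bp in the rest of the interval. The longest gap in the distal segment, 22981 bp from 103507471 to 103530452, fell between Lrrc37a and Gm884. The next, 12575 bp from 104882646 to 104895221, fell in Gm11639. Which bases of these gaps could be read was not analysed here.

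The interval overlaps 194 annotated genes, of which 117 are protein-coding, 40 lncRNA and 5 miRNA genes. A summit lay in the body or within 5 kb of 80 of the 117 protein-coding genes (68.4%), against 60.8% of all 21631. All 32 protein-coding genes in the segments had one, 25 in the distal and 6 in the proximal segment and 1 at the site, and 48 of the 85 others did (56.5%). The share outside the segments was therefore near the background. Of the 40 lncRNA genes 30 had a summit in or near them, against 51.6% of all lncRNA genes, and these were all 17 in the segments and 13 of the 23 outside them. None of the 5 miRNA genes (Mir6928, Mir6929, Mir8101, Mir6930 and Mir6931) lay in a segment.

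Genes of the distal segment ranked at the top of the genome in summits per kb. The interval was drawn for its peak density, so this ranking follows from that choice and is only a description. The 22 protein-coding genes of at least 5 kb that lie wholly inside it had a median of 0.793 summits per kb (0.461 to 1.04). All 16781 protein-coding genes of that size had a median of 0.0236 and a 99th percentile of 0.270. Among the 10 highest, 9 lie in the interval, and the first from elsewhere was Ugt1a1, on another chromosome, at rank 6. The highest was Wnt9b, a Wnt ligand, with 50 summits over 47.9 kb (1.04 per kb, 95% Poisson interval 0.775 to 1.38, counting error only). Mapt, which encodes the microtubule protein tau, had 94 summits over 103 kb (0.92 per kb, 0.740 to 1.12). At the lower end Gm11639 had 105 over 228 kb (0.46 per kb, 0.377 to 0.558). These genes were picked as the ends of the order, and the intervals treat neighbouring summits as independent, so no test is drawn from them.

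**Figure D5:**
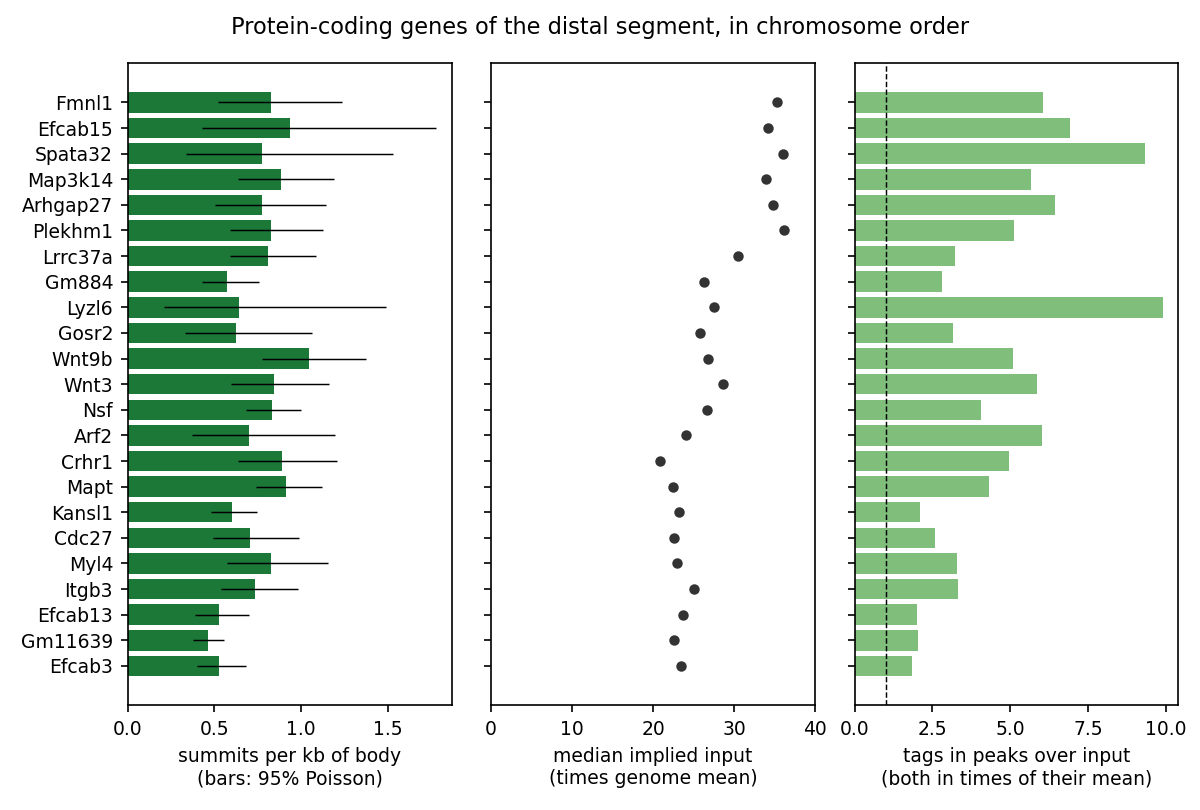
Protein-coding genes of at least 5 kb in the distal segment are ordered along the chromosome, with summits per kb and their 95% Poisson interval (left), the median implied input as a multiple of the genome mean (middle) and the ratio of tags in peaks to input, both relative to their means (right, dashed line at 1). Input falls from around 35 at Fmnl1 to around 23 from Mapt on, and the ratio is highest at Lyzl6 (9.91) and Spata32 (9.34) and between 1.84 and 3.31 from Kansl1 onwards.

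The genes at the proximal end of the distal segment had many tags for their length. Fmnl1 (chr11:103171004-103198902), a formin that shapes actin filaments, held 23 summits with 1880 tags, 67.4 per kb, at a median input of 35.3. Spata32 (chr11:103208127-103218432), a testis gene, held 8 summits with 1095 tags at 36.1, and peaks covered 81.2% of its body. Its peak at 103212373 to 103215146, shared with the lncRNA gene Gm51920, was the strongest of the interval, with 398 tags over 2774 bp, a height of 22 and a fold of 36.6. It ranked 4 among all peaks of chromosomes 1 to 19 and X by tags.

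The next genes lie in the same first level. Map3k14 (chr11:103219764-103267401) had 42 summits, 2884 tags and a median input of 33.9, and its strongest peak had 339 tags. Arhgap27 had 25 summits and 2277 tags at 34.9. Plekhm1 had 40 summits and 2836 tags at 36.2. These 3 genes had 0.78 to 0.88 summits per kb, so they differed little in density.

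The second level held genes of vesicle traffic and secretion and a pair of Wnt ligands. Lyzl6 (chr11:103631068-103638890) had only 5 summits but 673 tags, and its ratio of tags to scaled input, 9.91, was the highest of the 22 genes. Gosr2 had 13 summits with 534 tags and a ratio of 3.15, and Nsf (chr11:103821782-103954056), which reaches into the third level, had 110 summits with 4516 tags, the most summits of any gene in the interval. Wnt9b had 2063 tags at a median input of 26.8, and Wnt3, which lies beside it and overlaps it in the annotation, had 37 summits and 2326 tags at 28.7. Rprml, a short membrane protein gene, was the 1 protein-coding gene of the distal segment with no summit in its body, and it had 7 within 5 kb.

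The fourth level held genes of lower input. Arf2 (chr11:103966725-103985350) stood apart with 853 tags in 13 summits and a ratio of 6.03, and its peak at 103979873 to 103983071 was the longest of the interval at 3199 bp, with 334 tags. Crhr1, the corticotropin-releasing hormone receptor, had 40 summits and 1470 tags at 20.8. Mapt (chr11:104229409-104332090) had 3143 tags at 22.4 and a ratio of 4.33. Kansl1 (chr11:104333501-104469508), a subunit of the NSL histone acetyltransferase complex, is the next gene after Mapt and had an input of 23.2, with 82 summits with 2085 tags and a ratio of 2.10. At nearly the same input, tags per kb in these neighbours were 30.6 and 15.3.

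Further along, Cdc27, a subunit of the anaphase-promoting complex, had 34 summits, 883 tags and a ratio of 2.58. Myl4, an atrial myosin light chain, had 34 summits and 975 tags. Itgb3, the integrin beta chain of platelets, had 46 summits, 1632 tags and a ratio of 3.31. The EF-hand genes Efcab13 and Efcab3 and the predicted gene Gm11639 closed the segment with ratios of 2.00, 1.84 and 2.05. Their inputs, 23.6, 23.4 and 22.6, were close to those of Mapt and Kansl1.

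In the proximal segment input was lower, while some genes matched distal ones in tags for their input. Mpp3 (chr11:101999652-102027045), a membrane scaffold protein, had 21 summits and 678 tags at an input of 17.5, and it held the strongest peak of the segment with 163 tags. Its ratio of tags to scaled input, 4.49, and that of Sost, 4.48, were higher than the 2.10 of Kansl1. Both were below 4.65, the median of the 22 distal genes of at least 5 kb. Meox1, a homeobox factor, had 9 summits and 235 tags at 15.2. Sost had 5 summits over 4.56 kb with 116 tags at 18.0. Dusp3, a dual-specificity phosphatase, had 4 summits over 15.9 kb with 109 tags at 17.6, and Cfap97d1 had 4 summits. The ratios of Meox1, Cfap97d1 and Dusp3 were lower, at 2.92, 2.55 and 1.24.

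Genes between and beyond the segments had few peaks. Brca1, the breast cancer susceptibility gene of homologous recombination, held 2 summits with 9 tags over 63.2 kb at an input of 1.18. Tanc2, a synaptic scaffold, held 4 summits with 27 tags over 340 kb, and Tlk2, a chromatin assembly kinase, held 1 over 116 kb. No summit lay in or within 5 kb of Ubtf, Hexim1, Hexim2, Nbr1, G6pc, Fzd2, Slc4a1, Grn or C1ql1. Fold, which divides by the local input, was highest here. Peaks at Gpatch8 (fold 520, 23 tags), Tanc2 (499, 14 tags), Psme3 (462, 35 tags) and Marchf10 (357, 11 tags) led, with the highest fold, 528 with 15 tags, 14.9 kb from the lncRNA gene Gm39422. In the distal and proximal segments fold reached at most 79.8 and 79.3. Fold is height over input and no height in the list exceeds 22, so a high input bounds the fold there.

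Of 54 genes in 7 lists of neighbouring functions, 43 overlap the interval, 34 of those have a summit in or within 5 kb of the body, and 19 lie in a segment. The like share is 60.8% over all protein-coding genes and 68.4% over those of the interval. Of the 4 Wnt genes in the lists, Wnt3, Wnt9b and Sost lie in segments and the receptor gene Fzd2 has no summit. Of 8 vesicle and neuronal genes in the interval, Nsf, Mapt, Crhr1 and Gosr2 lie in a segment. Of the 11 genes listed under chromatin and transcription, Kansl1 and Meox1 do. The 5 of them with no summit are Ubtf, Hexim1 and Hexim2, which act in transcription, and Nbr1, an autophagy receptor, and G6pc, a glucose-6-phosphatase, which do not. The 3 splicing genes in the interval (Eftud2, Gpatch8 and Dhx8) have summits in or within 5 kb of the body but lie outside the segments, and Dhx8 has none in its body. The genes were chosen from this stretch, so the counts describe where they lie and say nothing of the lists' functions.

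By position, summits of the distal segment lay in and around genes as the bases do. Of its summits 76.4% lay in an annotated gene, which cover 77.1% of its bases. Within 1 kb of a gene end were 8.36% of summits and 8.14% of bases. Of the 87 summits outside the segments, 18 (20.7%, Wilson interval 13.5 to 30.4%) lay within 1 kb of a gene end, where 15% of those bases lie. That share of bases is inside the interval of the count. Exons and introns were not separated, since the gene table used gives gene bounds only.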

How the data were processed

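Per the labels' protocols, ChIRP was run on sonicated nuclei of 4T1-TGL cells and sequenced as single reads of 76 nt. The authors deposited 3 lists of 1 MACS 1.4.4 run, and mm10 (GRCm38) is named per the submitters' processing notes. For the aligner, the merged libraries and any use of the LacZ library, nothing is given in the sources used here. Per the file headers, the run took tags as 25 bp and fragments as 53 bp long, cut p at 1e-05, kept 1 tag per position at most, and used local input over 1000 and 10000 bp. Treatment tags fell from 988411 to 851227 and input tags from 52861677 to 50030325 on removal of duplicates. The deposited tag counts are whole-number counts in each peak, the deposited summit height is an unscaled signal, and the fold is the authors' ratio to local input. The deposited score multiplies the negative log10 of the p by 10, and all deposited false discovery rates are 0 percent. These values are the authors', for each peak. The limit on duplicates can lower tags and input where both are deep, and whether it did so here was not tested.

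Implied input was computed as height over fold, divided by the mean background of 0.0167 tags per fragment length, for an effective genome of 2.7e+09 bp. The deposited scores were recomputed from tags and implied input and came within 0.1 for 94.9% of the block's peaks and 88.6% of the 77812 peaks compared, with a 95th percentile of the difference of 20.7 over the latter. Segments are runs of neighbouring peaks with an implied input of at least 5, and levels are splits of at least 0.2 on the log2 scale with at least 15 peaks a side. Both rules were chosen after the data were seen. Genes and promoters were taken from RefSeq GRCm38.p6. Named genes were the members of 7 lists, the 10 genes with most summits and with most summits per kb, the genes at the edges, and the genes nearest to the 10 peaks of most tags and of highest fold. The members and lists were chosen with earlier results of these data known. Scripts ran in Python 3.11.15 with numpy 2.4.6, pandas 2.3.3, scipy 1.17.1 and matplotlib 3.10.9 and were tested on simulated data. No test between groups was made.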

Additional observations from a re-analysis of the deposited data

How the results depend on the processing

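No paired analysis was possible because the deposited peaks come from 1 merged treatment and no library has values of its own. With only peaks of a deposited score of at least 100, the interval kept 1007 peaks, 2.84% of all peaks and 10.8% of tags in peaks, with medians of 37 tags, 507 bp, a height of 9 and an implied input of 24.3. With only peaks of at least 10 tags it held 8.16% of peaks and 15.4% of tags, with medians of 26 tags, 411.5 bp, a height of 8 and an input of 24.3. Leaving out peaks of 3 tags gave 3.24% of peaks and 10.8% of tags. These shares move because fewer peaks are counted. An effective genome smaller by 10% lowered the median input to 21.3, which follows from how it is computed. Windows of 25 and 100 kb gave 89 and 24 windows of high input, and with a reach of 5 kb around gene ends the interval's share of summits was 36.1% and its share of bases 43.0% (9.48% and 12.3% with 1 kb). Runs at an input of at least 3 or 10, added after the data were seen, left both ends of the distal segment and the first peak of the proximal segment in place, and at 10 the proximal segment ended at 102041424. Smallest steps of 0.15 and 0.25 on the log2 scale, also added then, gave 5 and 4 levels in the distal segment, and with both the first level ended at 103471796 in place of 103549751. Input below the genome mean, and input away from peaks, cannot be seen in these values. By the Poisson calculation, tag counts of 3 to 5 fall short of the cutoff in most of the segments, though a peak of 5 tags was called at an input of 15 to 20.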
